A study of Mus musculus with 44 samples.

Results

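The libraries described here compare RNA on tagged ribosomes of cholinergic medial habenula (MHb) neurons with RNA of the whole dissected tissue. They are the 7 ChAT libraries without nicotine that were counted on 1 common gene list. They were chosen by line (ChAT), by gene list (the longest of the 3 in the series) and by the absence of nicotine, and they are 7 of 44 libraries in the series and 7 of 16 from the ChAT line. All came from adult mice of the single transgenic ChAT-TRAP line DW167 on a B6J.Cg background. In that line a bacterial artificial chromosome named for ChAT drives EGFP-L10a, a green fluorescent ribosomal protein. In translating ribosome affinity purification, anti-GFP beads pull down the tagged ribosomes with their RNA (IP), and the homogenate before the pulldown is the input.

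The 3 IPs came from mice that drank 0.2% saccharin for 6 weeks, in pools of 4 animals: saccharin pools 1 and 2, and saline-injected saccharin pool 2, whose mice also had an intraperitoneal saline injection 3 h before collection. The 4 inputs were baseline left MHb and baseline right MHb, each from 9 pooled males, and saline-injected saccharin pools 1 and 2. Every library, the controls included, thus carried the transgene, and none had nicotine. Treatment differed between the arms and cannot be told apart from fraction over all 7 libraries. Among these 7, 1 pool number, saline-injected saccharin 2, had both an IP and an input. The sources used here do not say whether left and right came from the same mice.

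The MHb is a small epithalamic nucleus that sends its axons through the fasciculus retroflexus to the interpeduncular nucleus. Its ventral neurons make acetylcholine and also release glutamate, and its dorsal neurons make substance P. MHb neurons are known for dense nicotinic receptors that contain the alpha3 and beta4 subunits, for GABA-B receptors at their terminals and for the transcription factors Pou4f1, Nr4a2 and those of the Iroquois family. Mitochondria translate their own messages on ribosomes of their own, which do not contain L10a.

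Gene counts per library ran from 23016292 to 59487274 in the IPs and from 24813199 to 70481509 in the inputs, and both saline-injected pool 2 libraries were the shallowest of their arm. Levels below are CPM, a gene's count relative to its library's total after TMM scaling, differences are log2 IP over input ± SE from the edgeR quasi-likelihood test, and a gene was called at a Benjamini-Hochberg adjusted p below 0.05 over all 17868 genes tested. Of these, 4174 (23.4%) were higher in the IP and 4854 (27.2%) lower, 50.5% together, and the median log2 difference was -0.05. 1692 of the higher and 3906 of the lower genes differed at least 2-fold. Upper-quartile scaling moved the median to -0.21 and the calls to 3147 higher and 5647 lower, so the share of higher genes among the calls fell from 46.2% to 35.8%. Within an arm, 290 to 480 genes above 10 CPM differed at least 2-fold between a pool 2 library and each other library of its arm, against 4 to 8 between the others. Without both pool 2 libraries, 5457 genes were called higher and 5810 lower. P-values measure the spread between these libraries, each taken as independent. Mice that left and right, or the 2 fractions of pool 2, may have in common were not modelled.

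The genes for making acetylcholine, taking up its precursor and loading it into vesicles were far higher in the IP, with log2 differences of 2.95 to 3.82, while the genes of the enzymes that break it down were not. Values are listed for the IPs as saccharin 1, saccharin 2 and saline-injected saccharin 2, and for the inputs as left, right, saline-injected saccharin 1 and saline-injected saccharin 2. Chat (chr14:32408203-32465989 on GRCm38, minus strand), which encodes choline acetyltransferase, stood at 83.7, 77.4 and 78.1 CPM in the IPs and at 8.9, 12.6, 11.4 and 8.21 CPM in the inputs. The arms lay far apart, with a log2 difference of 2.95 ± 0.17 (edgeR adjusted p = 8.3e-07). Slc5a7 (chr17:54273590-54299034, minus strand), the high-affinity choline transporter, stood at 375, 331 and 247 CPM against 23.9, 23.5, 22.2 and 20.3 CPM, a log2 difference of 3.82 ± 0.16. All IPs lay above all inputs, and saline-injected IP 2 was the lowest of the IPs. Slc18a3, the vesicular acetylcholine transporter gene that lies inside the Chat locus, stood at 338, 331 and 483 CPM against 30.1, 37.9, 34.3 and 29.2 CPM (3.55 ± 0.17), and here saline-injected IP 2 was the highest. Prima1, which anchors acetylcholinesterase in the membrane, rose by 3.20 ± 0.16, whereas the gene of the enzyme itself, Ache, was at 24.5 ± 2.28 CPM (SD, n = 3) and 22 ± 2.74 CPM (SD, n = 4) and overlapped between arms. Bche, butyrylcholinesterase, fell by 2.11, and Chka, a choline kinase, fell by 1.84. Of the 10 acetylcholine genes tested, 4 (40%) were higher and 2 (20%) lower, with a median log2 difference of 0.10. Over all genes tested, 23.4% were higher and 27.2% lower. Chkb, Slc44a1 and Slc44a2 did not pass the test.

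The neurokinin B gene Tac2 (chr10:127724478-127731768, plus strand) stood at 550, 586 and 531 CPM in the IPs and at 80.9, 100, 82.3 and 51.1 CPM in the inputs. Its arms did not overlap (2.82 ± 0.20, edgeR adjusted p = 2.72e-06), and saline-injected input 2 was the lowest library. Chrnb4 (chr9:55028154-55048779, minus strand), the beta4 nicotinic subunit, stood at 1194, 1045 and 900 CPM against 83.5, 87.7, 85.6 and 80.2 CPM. It rose by 3.63 ± 0.13 (edgeR adjusted p = 1.55e-07), and its inputs lay close together. Of 22 MHb neuron markers tested, 19 rose and 0 fell, with a median log2 difference of 3.18 against -0.05 over all genes tested. Their summed level was 13600 to 15336 CPM in the IPs and 1800 to 2043 CPM in the inputs. Calb2, Kctd12 and Slc17a6, named for having not passed, stood at log2 differences of -0.22, 0.11 and -0.20. Upper-quartile scaling called Slc17a6 lower. All 4 defining markers of the labelled cell type were thus higher in every IP than in any input, and all were also present in every input. An IP level reflects the amount of a message and how much of it sits on ribosomes, and these cannot be told apart here.

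These 4 markers rose together, so the 250 bases before each of their RefSeq starts (GRCm38.p6) are shown, read 5′ to 3′ on the gene's own strand, with capitals for any match to the letters searched. The windows are chr14:32465910-32466159 for Chat, chr17:54299035-54299284 for Slc5a7, chr9:55048545-55048794 for Chrnb4 and chr10:127724228-127724477 for Tac2.
Chat: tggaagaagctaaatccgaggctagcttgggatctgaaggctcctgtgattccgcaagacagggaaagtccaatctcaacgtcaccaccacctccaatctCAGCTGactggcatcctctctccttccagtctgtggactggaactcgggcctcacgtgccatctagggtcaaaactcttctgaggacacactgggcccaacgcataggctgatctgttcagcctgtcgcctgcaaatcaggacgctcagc
Slc5a7: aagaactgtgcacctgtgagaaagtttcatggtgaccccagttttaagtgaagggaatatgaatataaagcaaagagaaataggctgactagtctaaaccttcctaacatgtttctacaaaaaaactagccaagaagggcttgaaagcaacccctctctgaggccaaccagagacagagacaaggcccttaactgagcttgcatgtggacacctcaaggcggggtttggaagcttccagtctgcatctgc
Chrnb4: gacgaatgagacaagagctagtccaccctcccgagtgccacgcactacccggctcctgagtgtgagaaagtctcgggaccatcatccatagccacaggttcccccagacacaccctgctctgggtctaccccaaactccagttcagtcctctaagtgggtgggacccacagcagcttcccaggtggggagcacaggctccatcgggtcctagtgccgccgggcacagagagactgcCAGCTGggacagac
Tac2: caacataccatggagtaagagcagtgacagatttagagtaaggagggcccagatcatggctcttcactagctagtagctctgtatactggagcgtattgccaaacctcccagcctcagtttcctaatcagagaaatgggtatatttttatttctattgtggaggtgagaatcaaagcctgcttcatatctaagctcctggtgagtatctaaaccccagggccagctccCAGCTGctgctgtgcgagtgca
The letters searched, on both strands, were CAGCTG (an E-box that basic helix-loop-helix factors such as Nhlh1 bind, its own reverse complement), AAAGGTCA (the monomer site of the Nr4a family), ACANNTGT (an Iroquois site, also its own reverse complement) and ATAATTAAT (a Brn3 site of the Pou4f1 type). CAGCTG was found in Chat, Chrnb4 and Tac2, and in 12.8% of 27025 RefSeq promoters of this length. The other letters have no match in these windows, which says only that they are not in these bases. AAAGGTCA occurs in 1.31%, ACANNTGT in 6.29% and ATAATTAAT in 0.252% of the promoters. Among promoters of genes called higher, 11.5% held CAGCTG, against 12.4% of those of the genes tested.

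Nicotinic receptors are pentamers of alpha and beta subunits, and the IP was rich in only some of them. Of 10 subunits tested, 7 were higher, 1 was lower and 2 were not called, with a median log2 difference of 1.75. Chrna3 (chr9:55010111-55026562), the alpha3 partner of beta4, stood at 1598, 1325 and 1240 CPM against 77, 76.9, 77.9 and 107 CPM. That is a log2 difference of 4.04 ± 0.17, the largest of the subunits here, and saline-injected input 2 stood above the other inputs. Chrnb3 stood at 442, 383 and 272 CPM against 28.9 to 33.5 CPM (3.56 ± 0.17). Chrna5, the accessory alpha5 subunit, rose by 3.22 ± 0.34 but from low levels, 4.53, 4.63 and 6.21 CPM against 0.383 to 0.725 CPM. Chrna6 rose by 2.3 ± 0.48, also from under 1 CPM in every input. Chrnb2, the beta2 subunit, rose less, from 61.9 ± 4.11 to 113 ± 5.32 CPM (0.87 ± 0.11). Chrna4, its usual partner in the brain, overlapped between the arms at 216, 198 and 148 CPM against 159 to 205 CPM (0.02 ± 0.15, adjusted p = 0.906). Chrna7 did not pass the test (-0.33 ± 0.37). The muscle subunit Chrna1 fell by 2.20 at levels under 2 CPM, and the other muscle subunit, Chrnb1, rose by 1.21 ± 0.40 with overlapping arms, a call that was lost with only the saccharin mice (adjusted p = 0.0695).

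Per kilobase of exon, Chrnb4 and Chrna3 led in the IP, at 281 and 264 CPM per kb, followed by Chrnb3 at 57.4 and Chrna4 at 37.2. Chrnb2 had 13.5, Chrna5 1.64 and Chrna6 0.817 CPM per kb. In the input the order was different at the top: Chrna4 had 36.6 CPM per kb, Chrnb4 22.6 and Chrna3 16.1. Proteins that assist nicotinic receptors did not follow the subunits. Of 8 tested, 0 rose and 4 fell in the fit of all libraries, among them Lypd1 (fell by 2.91) and Lypd6b (fell by 2.86), which encode Ly6-type modulators of the receptor. Without both pool 2 libraries, 3 of these genes were called higher.

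**Figure D1:**
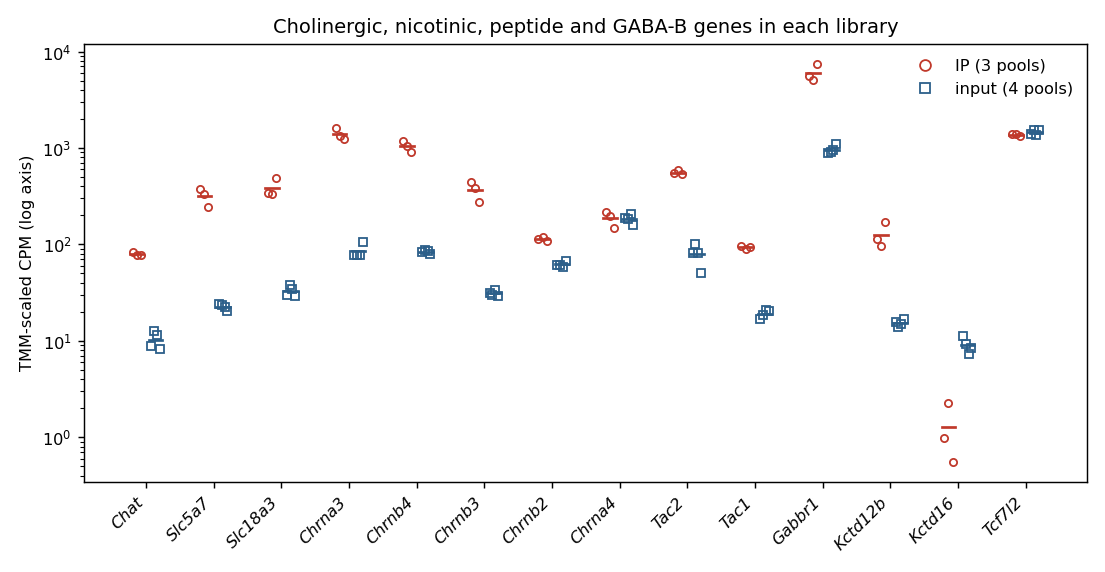
Level of 14 genes in each library, in TMM-scaled CPM on a log axis, with red circles for the 3 IPs, blue squares for the 4 inputs and bars for the means. Chat, Slc5a7, Slc18a3, Chrna3, Chrnb4, Chrnb3, Chrnb2, Tac2, Tac1, Gabbr1 and Kctd12b lie apart and higher in the IP, Kctd16 lies apart and lower, and Chrna4 and Tcf7l2 overlap.

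Transcription factors of MHb neurons were higher as a group, 10 of 12 tested, with 1 lower and a median log2 difference of 3.15. Pou4f1, a POU-domain factor of the developing and adult habenula, stood at 481, 421 and 615 CPM against 40.7, 45.7, 40.2 and 79.9 CPM (3.30 ± 0.25). Both pool 2 libraries were the highest of their arm. Irx1 showed the same order, with 77.8, 71.5 and 191 CPM against 7.08, 9.03, 7.52 and 21 CPM (3.36 ± 0.45). All 6 Iroquois genes rose. Irx6 did so by 4.72 ± 0.30, from 0.52 ± 0.18 to 13.7 ± 0.922 CPM, and Irx4 by 4.59 ± 0.52 at no more than 2.43 CPM in any library. Irx2 and Irx5 rose by 3.12 ± 0.14 and 3.18 ± 0.17, and Irx3 by 2.38 ± 0.26. Nr4a2, an orphan nuclear receptor, stood at 1253 ± 261 against 122 ± 8.75 CPM (3.36 ± 0.16). Lmo3 and Etv1 rose by 2.53 ± 0.14 and 2.39 ± 0.12. Tcf7l2, a Wnt pathway factor that thalamus and habenula share, stood at 1398, 1386 and 1321 CPM against 1377 to 1552 CPM and did not pass (-0.10 ± 0.11, adjusted p = 0.492). The LIM factor Isl1 was the exception in direction, at 0.518 ± 0.401 against 3.27 ± 0.856 CPM (fell by 2.63).

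Receptors for GABA split by class. Gabbr1 and Gabbr2, the obligate partners of the GABA-B receptor, stood at 5567, 5019 and 7440 CPM against 889 to 1087 CPM, and at 3246, 3080 and 2400 CPM against 565 to 619 CPM. The differences were 2.65 ± 0.16 and 2.31 ± 0.13, and no input came near an IP. Among the KCTD proteins that attach to this receptor, Kctd12b (chrX:153685154-153696391) rose by 3.04 ± 0.19 and Kctd8 by 2.95 ± 0.13. Kctd12 overlapped between arms at 25.9 ± 5.61 and 24.0 ± 4.56 CPM, and 64.2% of its exon bases also lie on other annotated genes. Kctd16 fell by 2.78, from 7.32 to 11.2 CPM in the inputs to 0.549 to 2.29 CPM in the IPs. Of 16 GABA-A subunits, which form chloride channels, 3 rose and 12 fell, with a median of -2.20. Gabra4 and Gabrd fell by 3.40 and 3.32. Gabra2 rose by 1.13 ± 0.34, but saline-injected input 2 held 73.5 CPM of it against 23.9 to 31.3 CPM in the other inputs, and with only the saccharin mice the adjusted p was 0.13.

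Of the vesicular glutamate transporters, the VGLUT1 gene was higher and the VGLUT2 gene was not called. Slc17a7, the VGLUT1 gene, stood at 533, 568 and 675 CPM against 63.6 to 72.2 CPM (3.12 ± 0.13). Slc17a6, the VGLUT2 gene, overlapped at 428, 387 and 382 CPM against 400 to 490 CPM. Slc1a1, a neuronal glutamate uptake carrier, fell by 1.10. Of 18 ionotropic glutamate receptor subunits, 5 (27.8%) rose and 10 (55.6%) fell, against 23.4% and 27.2% of all genes tested. Gria1 of the AMPA class rose by 1.41 ± 0.11 and Grik5 of the kainate class by 0.79 ± 0.12, while Grik1 and the NMDA subunit Grin2c fell by 2.53 and fell by 2.47. Of 7 metabotropic receptors, 2 (28.6%) rose and 5 (71.4%) fell. Grm7 and Grm4 fell by 2.5 and 2.28, whereas Grm3 rose by 0.59 ± 0.15 and Grm2 by 0.57 ± 0.18, and neither rise was called with only the saccharin mice.

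Few neuropeptide precursors rose: 5 of 34 tested (14.7%), with 20 (58.8%) lower and a median of -2.04. Over all genes tested, 23.4% rose and 27.2% fell. The summed level of the list was nevertheless higher in the IPs, at 892 to 949 CPM against 478 to 642 CPM in the inputs. The spexin gene Spx, given below, is not on this list. Besides Tac2, the substance P gene Tac1 stood at 96.7, 88.7 and 94.4 CPM against 17 to 20.8 CPM (2.28 ± 0.13). Of 6 genes of the dorsal, substance P territory tested, 3 rose, 1 fell and 2 were not called, and the one that fell was the cholecystokinin gene Cck, by 1.08. Adcyap1, which encodes PACAP, rose by 1.48 ± 0.13, Nppa, atrial natriuretic peptide, by 2.42 ± 0.41 and Cartpt by 0.85 ± 0.24. The value of Nppa was 27.8 CPM in saline-injected IP 2 and 8.05 and 8.14 CPM in the other IPs, and 61.5% of its exon bases lie on a gene of the other strand. Pnoc, the nociceptin precursor, fell by 3.93 and Igf1 by 3.09. Sst, the somatostatin gene, named here after its values were seen, stood at 4.13, 5.48 and 9.88 CPM against 12.3 to 23.5 CPM, and fell by 1.60. Of 14 processing and granule genes, 7 rose and 2 fell. Cadps2, a priming factor of dense-core vesicles, rose from 139 ± 13.7 to 1178 ± 81.0 CPM (3.08 ± 0.13), and the prohormone convertase Pcsk1 rose by 1.88 ± 0.17. The related Cadps fell by 1.90 and chromogranin A, Chga, by 0.99.

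By number of genes, receptors for peptides and amines were mostly lower, with a few far higher, but their summed levels were not lower in the IP. Of 43 peptide and hormone receptors, 9 (20.9%) rose and 25 (58.1%) fell, with a median of -1.96, against 23.4% and 27.2% of all genes tested. The sum of that list was 559 to 681 CPM in the IPs and 502 to 567 CPM in the inputs. Sstr4 and Sstr2, receptors for somatostatin, rose by 3.32 ± 0.21 and 3.24 ± 0.14. Sstr2 stood at 97.6, 87.9 and 79.4 CPM against 8.21 to 10.3 CPM, so all IPs were far above all inputs. Ramp3 and Ramp1, partners of calcitonin-type receptors, fell by 4.65 and 4.44. Of 29 monoamine and histamine receptors, 4 (13.8%) rose and 17 (58.6%) fell, and their sum was 469 to 650 CPM in the IPs and 310 to 425 CPM in the inputs. Htr5b, a serotonin receptor with a habenular pattern in rodents, stood at 370, 338 and 246 CPM against 17.1 to 21 CPM (4.08 ± 0.17), and its relative Htr5a rose by 2.52 ± 0.17. The adrenergic Adra1b fell by 3.49 and the histamine receptor Hrh3 by 3.14. Among 5 muscarinic receptors, Chrm1 rose by 2.38 ± 0.20 and Chrm2 fell by 2.

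Ion channel and release genes were called in both directions. Of 66 potassium and pacemaker channel genes, 20 (30.3%) rose and 29 (43.9%) fell, against 23.4% and 27.2% of all genes tested. Kcnip1, an accessory subunit of Kv4 channels, stood at 1094, 1088 and 1164 CPM against 85.5 to 119 CPM (3.43 ± 0.14), and the Kv modifier Kcng4 rose by 3.12 ± 0.12. Kcnc2, a Kv3 channel of fast-spiking neurons, fell by 3.12, and Kcnj10, an inward rectifier of glia, by 2.89. Of 28 sodium and calcium channel genes, 10 (35.7%) rose and 12 (42.9%) fell. Cacnb3, a beta subunit of calcium channels, stood at 1827, 1874 and 1956 CPM against 134 to 180 CPM (3.62 ± 0.15). Cacna1e, the pore of R-type calcium channels, rose by 2.79 ± 0.15, while Scn4b and Cacna2d3 fell by 3.09 and 2.38.

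Of 47 vesicle and release genes, 20 (42.6%) rose and 13 (27.7%) fell, against 23.4% and 27.2% of all genes tested. With upper-quartile scaling 15 of them rose and 16 fell. Synpr, the vesicle protein synaptoporin, stood at 1707, 1284 and 897 CPM against 45.3 to 58.3 CPM (4.57 ± 0.22), and Syt15, a synaptotagmin, rose by 4.13 ± 0.19. Rab3c and Doc2b fell by 2.37 and fell by 2.34. Of 25 nitric oxide, cGMP and phosphodiesterase genes, 6 (24%) rose and 13 (52%) fell. Pde2a, which cGMP stimulates, stood at 1287 ± 33.8 against 116 ± 6.03 CPM (3.47 ± 0.11), with 64.3% of its exon bases shared with another annotated gene, and Pde1a rose by 3.10 ± 0.13. Nos1, neuronal nitric oxide synthase, rose by 1.52 ± 0.14 to 84.6, 90.6 and 88.4 CPM. Nos1ap and Pde5a fell by 2.93 and 2.92. Of 50 axon guidance genes, 24 (48%) rose and 16 (32%) fell. The semaphorin receptor Nrp2 rose by 2.89 ± 0.13 and Robo3, a receptor of midline crossing, by 2.81 ± 0.17, and Unc5b and Efnb2 fell by 2.67 and 2.52.

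Astrocyte, oligodendrocyte and microglial markers were lower in the IP but not absent from it, whereas endothelial and mural markers were mostly not called. For the level of such a marker in these bulk inputs, fewer cells of a type and less RNA per cell cannot be told apart. All 17 astrocyte and all 18 oligodendrocyte markers tested fell, with medians of -2.53 and -3.42. The summed oligodendrocyte markers were at 410, 497 and 197 CPM in the IPs and at 3127 to 3607 CPM in the inputs, and the summed astrocyte markers at 645, 785 and 383 CPM and at 2487 to 3152 CPM. For both lists saline-injected IP 2 was the lowest and saccharin IP 2 the highest of the IPs, and no marker was at 0 in all IPs. Opalin and Mog of oligodendrocytes fell by 4.70 and 4.27, and Fabp7 and S100b of astrocytes by 4.08 and 3.93. Of 17 microglial markers, 15 fell and 0 rose, with Laptm5 and C1qb falling by 4.10 and 3.84. Their sum was 9.97 to 17.3 CPM in the IPs and 64.5 to 110 CPM in the inputs.

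Endothelial and mural markers did not move as a list: 2 of 19 rose and 2 fell, with a median of -0.11. Without both pool 2 libraries, 5 rose and 5 fell and the median was 0.41. Their sum was 79.2 and 110 CPM in the saccharin IPs, 31.5 CPM in saline-injected IP 2 and 80.7 to 109 CPM in the inputs. Esam, a junction protein gene of vessels, rose by 2.62 ± 0.25 to 8.35, 8.25 and 9.00 CPM. Of 14 choroid plexus and ependymal markers, 9 fell and 2 rose. Ttr, transthyretin of the choroid plexus, was at 0.51, 0.0881 and 0.127 CPM against 73.7, 45.3, 11.1 and 15.5 CPM and fell by 7.09, and its baseline inputs stood above the saline-injected ones. The 2 that rose were Sostdc1 (3.30 ± 0.20), a secreted antagonist of BMP signals, and the homeobox gene Otx2 (2.01 ± 0.14). Of 8 oligodendrocyte precursor markers, 4 fell, among them Gpr17 and Neu4, and Cacng4, an AMPA receptor auxiliary subunit, rose by 1.00 ± 0.16. Of 5 blood genes, 4 fell, with Hbb-bs at 0.292 ± 0.205 against 6.36 ± 0.702 CPM.

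Thalamic and GABAergic markers were lower too, while the lateral habenula and hippocampal lists had genes in both directions. All 8 thalamic markers fell, with a median of -2.49, and their sum was 415 to 788 CPM in the IPs and 2395 to 2805 CPM in the inputs. Tnnt1 stood at 3.54, 3.72 and 3.51 CPM against 45.8, 48.1, 46.1 and 93.5 CPM and fell by 4.02. Of 6 lateral habenula genes, 4 fell and 1 rose, the peptide gene Cartpt given above. Those that fell included the growth cone protein gene Gap43 (fell by 3.60) and Pcdh10 (fell by 2.29). Of 15 GABAergic markers, 11 fell and 0 rose, and Pvalb and Six3 fell by 4.45 and 3.52. Among 8 hippocampal markers tested, 3 fell and 2 rose. Prox1 fell by 1.64, while Fibcd1 rose by 3.09 ± 0.15, from 10.8 ± 1.70 to 92.2 ± 4.82 CPM, and Neurod6 by 2.23 ± 0.25. Of 24 pan-neuronal genes, 6 (25%) were higher and 7 (29.2%) lower, close to the 23.4% and 27.2% of all genes tested, and 4 and 11 with upper-quartile scaling. Rbfox3 rose by 1.64 ± 0.17 and Elavl4 by 1.18 ± 0.18, and Syn2 and Elavl2 fell by 2.67 and 2.13. Among 26 immediate early genes, whose RNA follows neuronal activity, 6 (23.1%) rose and 13 (50%) fell. Nptx2 and Btg2 rose by 2.55 ± 0.17 and 1.68 ± 0.21, and Dusp6 and Bdnf fell by 2.60 and 2.3. The saline injection was given to 1 of 3 IP pools and 2 of 4 input pools.

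**Figure D2:**
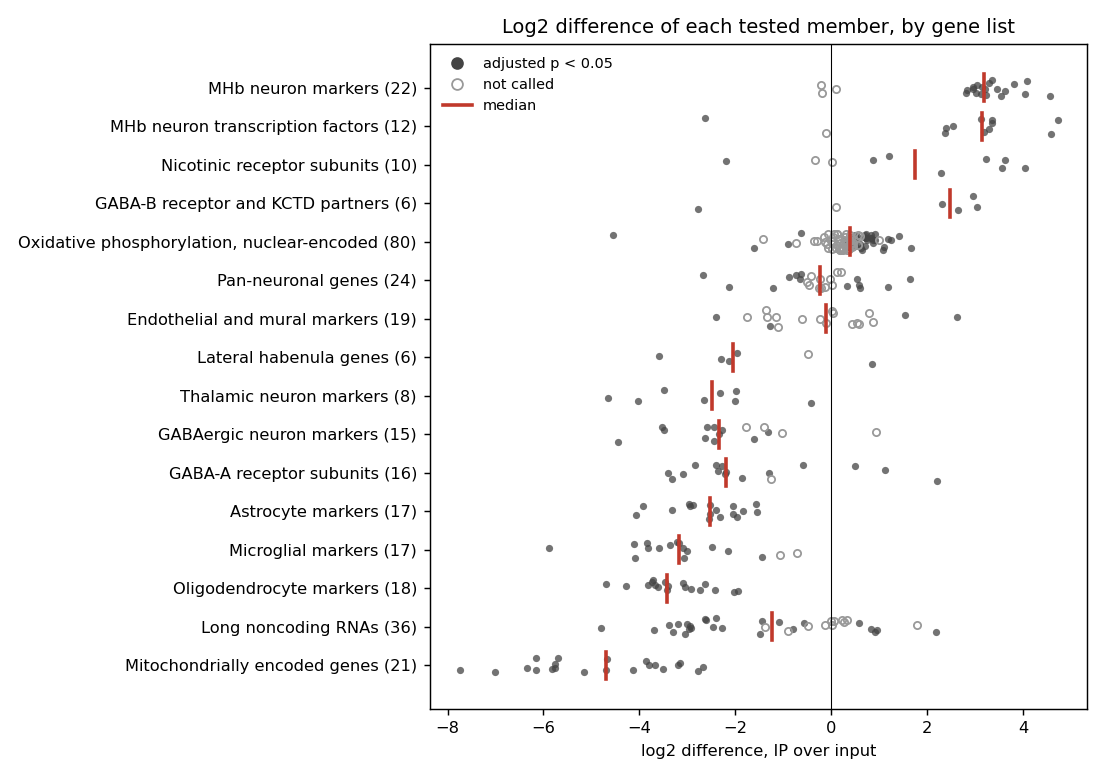
Log2 difference, IP over input, of every tested member of 16 gene lists (number tested in brackets), filled where called at adjusted p below 0.05, with the list's median as a red bar. Medians run from 3.18 for MHb neuron markers to -4.70 for mitochondrially encoded genes, against -0.05 over all genes tested.

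The full gene list also holds symbols that at least 1 other list of the series lacks: 14646 of them. Among these, 2614 were tested, and 198 (7.57%) were higher and 928 (35.5%) lower, with a median of -1.06, against -0.05 over all genes tested. They held 1.72 to 3.29% of the gene counts in the IPs and 16.1 to 23.8% in the inputs. Most of that gap was mitochondrial. Genes of the mitochondrial genome held 0.114, 0.103 and 0.0673% of the counts of the IPs and 12.5, 11.9, 15.0 and 21.6% of those of the inputs. The lowest input share was 104 times the highest IP share. Without the mitochondrial genes, the remaining symbols held 1.61 to 3.22% in the IPs and 2.19 to 4.33% in the inputs, so those ranges overlapped.

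All 21 mitochondrial genes tested fell, with a median of -4.70, and 19 of 22 tested with only the saccharin mice were called lower. The large ribosomal RNA mt-Rnr2 (positions 1094 to 2675 of the mitochondrial genome) stood at 651, 611 and 231 CPM against 94480, 86703, 114075 and 131969 CPM. It fell by 7.75, and the small ribosomal RNA mt-Rnr1 fell by 7.00, from 24040 to 82986 CPM to 303 to 347 CPM. The 7 protein-coding genes tested fell by 5.69 to 6.35. Of these, mt-Co1, the first subunit of cytochrome oxidase, stood at 36.0, 29.2 and 36.5 CPM against 1353, 1377, 1632 and 6717 CPM. Saline-injected input 2 was the highest for all 7, and mitochondrial messages made 1.86% of its counts against 0.382 to 0.466% in the other inputs. The cytochrome b gene mt-Cytb fell by 6.15, as did mt-Nd4, and mt-Nd6, mt-Nd2, mt-Nd1 and mt-Nd5, of complex I, had log2 differences of -5.83, -5.76, -5.75 and -5.69. All 12 transfer RNAs tested fell, by 2.68 to 5.15. The other 6 protein-coding genes, mt-Atp6 and mt-Co2 among them, had no more than 7 counts in any library, IP or input, so they give no value here. Reads without a unique place made 28.7 and 30.1% of the reads of the saccharin IPs and 45.4% of those of saline-injected IP 2. In the inputs such reads made 35.2 to 37.2%. They stayed out of the counts, and their part in these values was not tested.

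**Figure D3:**
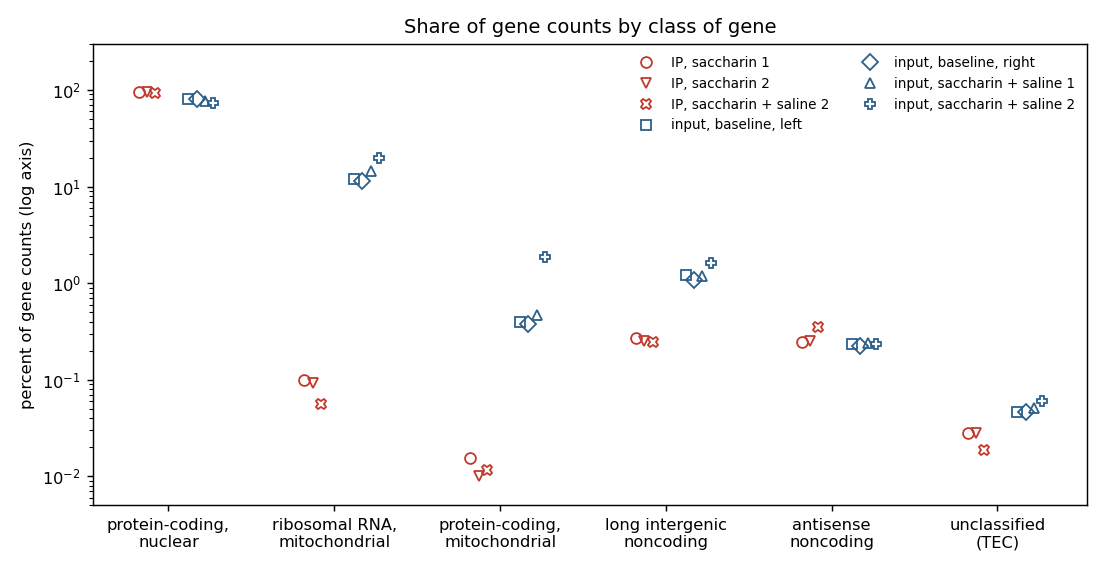
Percent of all gene counts held by 6 classes of genes in each library, on a log axis, with red marks for IPs and blue marks for inputs. Mitochondrial ribosomal RNA made 0.0556 to 0.0986% of the IP counts and 11.5 to 19.7% of the input counts. Nuclear protein-coding and antisense genes were the classes that were not lower in the IP. The total includes the mitochondrial counts, which lowers the share of every other class in the inputs.

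The respiratory chain draws on both genomes, and its nuclear genes did not follow the mitochondrial ones. Of 80 nuclear oxidative phosphorylation genes tested, 30 (37.5%) rose and 4 (5%) fell, with a median of 0.38. The count was 21 higher and 5 lower with upper-quartile scaling, 13 and 1 with only the saccharin mice, and 36 and 13 without both pool 2 libraries. The summed level was 14146, 14456 and 17457 CPM in the IPs and 10374 to 12739 CPM in the inputs. Cox6b2 rose by 1.67 ± 0.36, with 21.7 CPM in saline-injected IP 2 and 6.35 and 9.67 CPM in the other IPs. Cox6a2, a cytochrome oxidase isoform known from muscle, fell by 4.56, from 28.4 to 36.2 CPM to 0.634 to 1.76 CPM. Over all genes tested, 23.4% rose and 27.2% fell. Cytosolic ribosomal protein genes differed little as a list: 5 of 76 (6.58%) rose and 18 (23.7%) fell, with a median of -0.30. Upper-quartile scaling gave 2 and 24, the saccharin mice alone 2 and 3, and the libraries without pool 2 gave 5 and 35. Rplp1 fell by 1.63, and Rpl27a rose by 1.13 ± 0.17. These genes have many near-identical copies in the genome, so their counts are uncertain. Rpl15 stood at 371 CPM in saline-injected IP 2 and at 85.0 and 71.0 CPM in the other IPs, and its call was lost without that library (adjusted p = 0.457). Of 35 replication-dependent histone genes, 6 (17.1%) rose and 3 (8.57%) fell, and Hist1h2bc fell by 3.22.

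Most classes of nuclear noncoding RNA were lower too. Noncoding genes at bidirectional promoters were not: of 62 tested, 11 (17.7%) rose and 8 (12.9%) fell, with a median of -0.02. Processed transcripts were lower by less, with a median of -0.44. Of 541 long intergenic noncoding genes tested, 56 (10.4%) rose and 216 (39.9%) fell, with a median of -0.98, whereas nuclear protein-coding genes had a median of 0.04. Long intergenic genes found on every list of the series and those missing from at least 1 list gave medians of -0.82 and -1.02. Malat1, a nuclear RNA of splicing speckles, stood at 313, 247 and 99.5 CPM against 6336, 4767, 5937 and 7286 CPM and fell by 4.79. Neat1, the scaffold RNA of paraspeckles, fell by 3.69, from 57.9 to 87.9 CPM to 2.32 to 9.73 CPM. Saline-injected IP 2 had the least of both. Rn7sk, which holds back transcription elongation, fell by 4.54 and stood at 70.2 CPM in saline-injected input 2 against 20.1 to 26.1 CPM in the other inputs. Rpph1, the RNA part of RNase P, had 0.051 CPM in 1 IP and was at 0 in the other IPs, against 2.5 to 13.8 CPM, and 73% of its bases lie on another gene. Host transcripts of the neuronal microRNA miR-124 also fell, Mir124a-1hg by 4.04 and Mir124-2hg by 1.69. Of 30 small nucleolar RNA genes tested by class, 20 fell and 2 rose. Of 36 named long noncoding RNAs tested, 5 (13.9%) rose and 20 (55.6%) fell, with a median of -1.24. Gm26917 and Pantr1 were among those that rose, by 2.18 ± 0.44 and 0.95 ± 0.35, though saline-injected IP 2 stood apart from the other IPs for both, lower for Gm26917 and higher for Pantr1. The call for Pantr1 was lost without that library (adjusted p = 0.198).

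**Figure D4:**
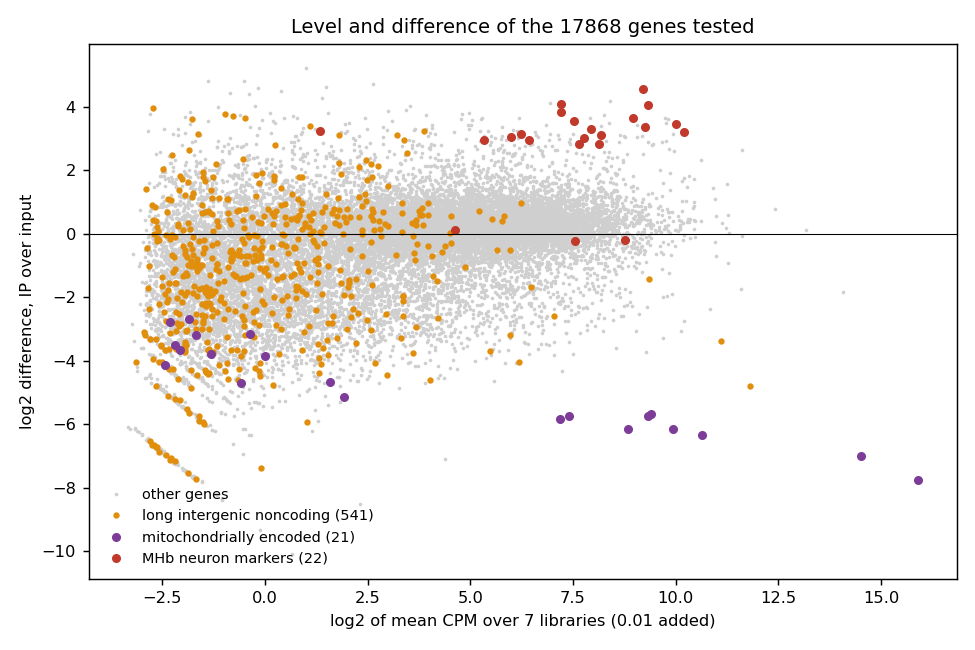
Log2 difference, IP over input, of the 17868 genes tested against the log2 of their mean CPM over the 7 libraries with 0.01 added. Mitochondrially encoded genes (purple, 21) all lie below 0, MHb neuron markers (red, 22) lie between 2.82 and 4.57 apart from 3 genes near 0, and most of the 541 long intergenic noncoding genes (orange) lie below 0.

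Antisense genes were not lower in the IP in their share of all gene counts, although 249 of 711 tested fell and 73 rose. They held 0.249, 0.253 and 0.351% in the IPs, the last in saline-injected IP 2, and 0.223 to 0.238% in the inputs. Mitochondrial genes held 11.9 to 21.6% of the same total in the inputs and 0.0673 to 0.114% in the IPs. That lowers the share of every other class in the inputs, so the gap between these arms is not a difference among nuclear genes alone. Several of the largest rises among symbols missing from another list lay over MHb genes. Gm2990 (chr14:32465042-32483548, plus strand) spans the Chat promoter window shown above on the other strand. It stood at 140, 148 and 142 CPM against 16.4, 18.4, 15.7 and 10.5 CPM, a log2 difference of 3.23 ± 0.18 next to 2.95 ± 0.17 for Chat. Gm13713 and Gm13716 lie over Lrrc55, which encodes an auxiliary subunit of BK potassium channels, on the strand opposite to it. They rose by 3.41 ± 0.17 and 2.99 ± 0.28, and Lrrc55 itself by 3.45 ± 0.13, to 2161, 1932 and 2369 CPM. The labels' protocols name no strand marking, so reads of these genes and of their partners cannot be told apart where they overlap. In GENCODE M21, 23.3% of the exon bases of Gm13713 and 32.9% of those of Gm13716 lie on exons of Lrrc55, and none of those of Gm2990 lie on exons of Chat.

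Across all such pairs, 968 noncoding genes tested lay over a tested protein-coding gene on the other strand. Where the noncoding gene rose (107 genes), the coding partner rose in 54.2% of cases and fell in 7.48%. Where it fell (345 genes), the partner rose in 15.9% and fell in 44.3%. Over all 968 pairs, 28.0% of partners rose and 27.7% fell. These shares are a description, since members of a pair can share reads.

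**Figure D5:**
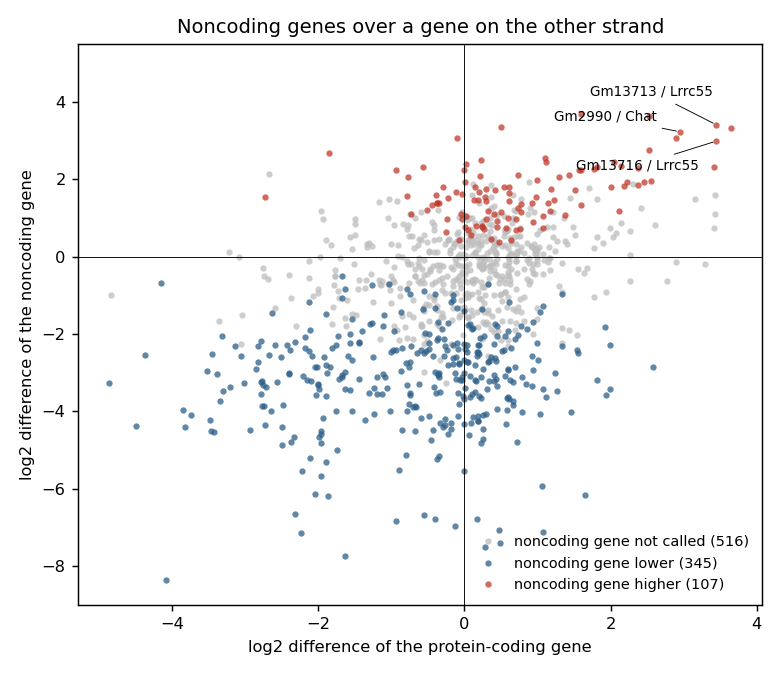
Log2 difference of 968 noncoding genes against that of the protein-coding gene on the other strand, coloured by the call of the noncoding gene (107 higher, 345 lower, 516 not called). Red points lie mostly to the right of 0, and the pairs of Gm2990 with Chat and of Gm13713 and Gm13716 with Lrrc55 lie at the upper right.

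Of the other symbols missing from at least 1 list, Spx rose the most among those that passed the rule. Spx (chr6:142413441-142419730, plus strand) encodes spexin, a small neuropeptide, and stood at 27.4, 20 and 21.8 CPM against 1.68, 1.73, 1.17 and 1.67 CPM. All IPs lay above all inputs, with a log2 difference of 3.89 ± 0.21 (edgeR adjusted p = 6.14e-07). Gm4980 rose by 3.76 ± 0.17, 2600014E21Rik by 3.24 ± 0.19, Gm38101 by 3.12 ± 0.20 and Gm10605, which shares 32.7% of its exon bases with Tpbgl on the other strand, by 2.96 ± 0.24. The 8 with the largest falls were all mitochondrial.

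Over all genes with at least 10 CPM in the higher arm and arms that did not overlap (54.8% of genes tested had such arms), the 12 largest rises were those of Irx6, Synpr, Tspan18, Syt15, Htr5b, Chrna3, Nhlh1, Spx, C1qtnf1, Slc5a7, Ascl4 and Gm4980. Tspan18, a tetraspanin, stood at 894, 813 and 509 CPM against 38.0 to 45.5 CPM (4.17 ± 0.20). The basic helix-loop-helix factors Nhlh1 and Ascl4 rose by 4.01 ± 0.25 and 3.79 ± 0.21. Nhlh1 stood at 19.2, 25.7 and 29.2 CPM against 1.17 to 2.20 CPM and Ascl4 at 75.1, 69.3 and 56.3 CPM against 3.69 to 6.41 CPM. C1qtnf1, a secreted protein of the C1q family, rose by 3.85 ± 0.24. The 12 largest falls were 9 mitochondrial genes, Ttr, Malat1 and Gng11, a G protein gamma subunit that fell by 4.85.

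Within pool 2, where the labels give an IP and an input the same number, the markers had log2 ratios, with 1 CPM added, of 3.10 for Chat, 3.54 for Slc5a7, 3.47 for Chrnb4 and 3.35 for Tac2. That of mt-Rnr2 was -9.15. These are single values with no replicate.

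No gene passed the test between the input groups. Saline-injected saccharin inputs against baseline inputs gave 0 genes called of 18288 tested (0%) by edgeR, 554 at an unadjusted p below 0.05, and 3 by DESeq2. Leaving out saline-injected input 1 changed the count to 3123, a fit in which saline-injected input 2 stands alone and is assumed to vary like the baseline inputs. Leaving out saline-injected input 2 gave 24. The smallest adjusted p was that of Xist (0.182), the RNA of the inactive X chromosome, which stood at 0.0806 and 0.0136 CPM in the male baseline inputs, at 8.78 and 3.21 CPM in the saline-injected inputs and at 19.6, 9.20 and 1.86 CPM in the IPs. Between IP and input Xist did not pass the test (1.79 ± 1.33, adjusted p = 0.289), and the arms overlapped. The Y-linked Eif2s3y was 6.45, 10.9 and 17.6 CPM in the IPs and 12.7 to 33.8 CPM in the inputs. It was called lower (fell by 1.12, adjusted p = 0.0284) and lost the call with only the saccharin mice. The Y-linked Ddx3y, Kdm5d and Uty overlapped between the arms and did not pass. Both baseline inputs are male by their labels, the study design gives pools with no sex stated as mixed, and the part of sex in the other results was not tested.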

How the data were processed

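RNA sequencing of tagged ribosomes (IP) and of whole homogenate (input) was compared in 7 libraries from pooled ChAT line mice. The deposited values are raw read counts per gene symbol, which the authors made by aligning to mm10 with STAR 2.3.0e and counting with HTSeq, per the submitters' processing notes; their settings were not given in these sources. Libraries were made from amplified cDNA without molecular identifiers or named strand marking, per the labels' protocols, so floors cover counting error only. A count of 3 is 0.0426 to 0.13 CPM. Reads outside genes (9.47 to 13.7%), without a unique place (28.7 to 45.4%) or ambiguous (3.33 to 4.04%) stayed out of library sizes and tests.

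Counts were tested with the robust quasi-likelihood test of edgeR 4.0.16 in R 4.3.3 with TMM scaling, after removing genes with a low count (filterByExpr, minimum count 10), and p-values were Benjamini-Hochberg adjusted over all genes tested, with calls at 0.05. Every adjusted p in the text is from edgeR unless another tool is named. The fit was also run on simulated counts, with few changed genes and the same spread for every gene. Those settings differ from these data, so that run does not measure how reliable the calls here are. DESeq2 1.42.0, other scalings, other filters, subsets of the libraries and each library left out were the alternatives. Same-arm libraries differed by more than counting noise (chi-square per degree of freedom of 22.6 to 190), so reads were not taken as replicates. Each library counted as 1 sample, and these values do not show that left and right are independent. Exon lengths, classes and coordinates came from GENCODE M21 (34051 of 37328 symbols matched to 1 gene) and promoter windows from RefSeq.

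The members and gene lists were chosen with earlier results of these data known. Named were the markers, the acetylcholine, nicotinic, GABA-B and transcription factor lists, up to 2 genes in each direction from every other list with at least 5 CPM in the higher arm, and the 12 largest differences in each direction over all genes (8 over symbols missing from another list) with at least 10 CPM and arms apart. Calb2, Slc17a6, Tac1, Sst, Nos1, Lrrc55, Tpbgl, Xist and the Y-linked genes were chosen after their values were seen. Some genes that the rule names are not reported here.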

Additional observations from a re-analysis of the deposited data

Results flagged for a closer look

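Among the 187 genes named or listed by rule, 29 had 1 of the 4 inputs far from the other 3, with a gap to the nearest input above the 95% critical value of Dixon's test. Chance alone flags about 1 in 20 groups. The outlying library was saline-injected input 2 in 24 cases, saline-injected input 1 in 3, and the left and the right input in 1 case each.

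Saline-injected input 2 stood above the other inputs for Chrna3 at 107 CPM, Pou4f1 at 79.9 CPM and Irx1 at 21 CPM. It was also above them for the lateral habenula and thalamic markers Gap43 at 1058 CPM and Tnnt1 at 93.5 CPM, for Gabra2 at 73.5 CPM and for the early gene Nptx2 at 25.4 CPM. It was below them for Synpr at 45.3 CPM, Ramp3 at 61.2 CPM and Ndufa11 at 42.9 CPM. Markers of MHb neurons and of their neighbours thus went both ways in this library, since Synpr is an MHb marker and Ramp3 a thalamic one. It was also the lowest input for all 4 defining markers. They stood there at 8.21 CPM for Chat, 20.3 CPM for Slc5a7, 80.2 CPM for Chrnb4 and 51.1 CPM for Tac2.

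The same library was high for the noncoding Gm26917 at 4.61 CPM and Rn7sk at 70.2 CPM, for Uqcrb at 18.9 CPM, and for the ribosomal protein genes Rpl15 at 111 CPM, Rpl27a at 51.8 CPM and Rpl9 at 6.98 CPM. Mitochondrial genes were the largest group. It held 82986 CPM of mt-Rnr1, 6717 CPM of mt-Co1, 2248 CPM of mt-Nd4, 4380 CPM of mt-Cytb, 681 CPM of mt-Nd6, 729 CPM of mt-Nd2, 2622 CPM of mt-Nd1 and 2844 CPM of mt-Nd5, each above the range of the other inputs. It had 24813199 gene counts against 54701790 to 70481509 in the others, and the part of depth in these values was not tested.

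Saline-injected input 1 was low for Irx3 at 0.785 CPM and Spx at 1.17 CPM and high for Gm26703 at 9 CPM. The left input was low for the kainate subunit Grik5 at 38.2 CPM, and the right input was low for Pde5a at 6 CPM.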

How the results depend on the processing

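The IP against input result gave 9028 calls, of which 4174 were higher and 4854 lower. It gave 5906 calls with only the saccharin mice, of which 3077 were lower, and 4858 with only the saline-injected saccharin libraries (1 IP, assumed to vary like the inputs), of which 1616 were higher. With each library left out in turn the count ran from 7457 to 9481. No call had the opposite sign under any alternative except the saline-injected libraries alone (22 genes). Over all genes, 5825 of the 8855 main calls tested with only the saccharin mice were kept, and 7409 of 8786 without saline-injected input 1. The 187 named genes gave 3411 unchanged results, 95 that lost the call, 12 that gained it and 0 that reversed. Of the 173 called, 157 kept the call in every setting apart from the saline-injected libraries alone. Many of these genes were named for large differences in the same fit, so their calls were likely to be kept and do not stand for all calls.

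Between the input groups, 0 genes were called by edgeR, 3 by DESeq2 (1 higher, 2 lower) and 54 with no filter (45 higher, 9 lower). With each input left out, the count ran from 0 to 3123, with 0 to 1587 higher and 0 to 1536 lower. The cause was not tested. The alternatives without both pool 2 libraries and without the mitochondrial genes were chosen after seeing the data. No paired analysis was possible because only 1 pool number has both fractions.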
